A study of Homo sapiens with 10 samples.

Results

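The genes that encode the proteins of the cytosolic ribosome were examined in the peak lists of a ChIP-seq study of CTCF and histone marks in HEK293T cells. The members were all protein-coding genes of chromosomes 1 to 22 in GENCODE release 44 whose symbol is RPL or RPS with a number and an optional A or X, together with RPLP0, RPLP1, RPLP2 and RPSA. The rule used symbols and no measured value. It gave 73 of 19111 autosomal protein-coding genes, 43 of the large subunit and 30 of the small subunit, on 20 chromosomes, and it left out 4 genes on the X chromosome.

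HEK293T is a human embryonic kidney line that carries the SV40 large T antigen, and in ChIP-seq an antibody pulls down DNA bound by a protein or carrying a histone mark before sequencing. All cells were transduced with lentivirus. They carried a non-targeting shRNA and endogenous CGGBP1 (CT), a CGGBP1-silencing shRNA (KD) or a construct for CGGBP1 overexpression (OE), and CT and KD cells were selected with puromycin. CTCF was profiled in all 3 conditions, the histone marks H3K4me3, H3K9me3 and H3K27me3 in the first 2 of them, and 1 input library without antibody gave a background list. CGGBP1 is a DNA-binding protein that recognises CGG repeats, and the lists hold no measure of its level. Each condition had 1 library, so a difference between CT, KD and OE had no replicate check, no p-value was computed, and the 95% intervals given are exact Clopper-Pearson intervals that cover counting error over genes or peaks only. A peak list says where signal passed a threshold and not how high it was. A missing peak is therefore a signal under that threshold. Its p value in the labels is 0.0025 for the CTCF lists of CT and KD cells, 0.005 for that of OE cells and 0.001 for all other lists.

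Each cytosolic ribosome joins a small subunit, which reads the mRNA, to a large subunit, which forms the peptide bond, and every protein of both subunits is needed in nearly equal amounts in every growing cell. The genes are among the most actively transcribed by RNA polymerase II. Most human copies start at a cytosine inside a run of pyrimidines, the 5' terminal oligopyrimidine (TOP) tract, through which the mTOR kinase controls translation of their mRNAs, and many carry small nucleolar RNAs in their introns. CTCF is a zinc finger protein that binds a long asymmetric motif and shapes chromatin loops together with cohesin, and H3K4me3 marks the first nucleosomes of active promoters.

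The sequences at the starts showed this architecture. The start was the first base of the canonical transcript of each gene. At 59 of 73 members (80.8%) it was a C, against 10.6% of all protein-coding genes. A C followed by an unbroken run of at least 5 pyrimidines in all, counted from the start, was found at 55 members (75.3%), against 4.55% of all genes and 6.41% of the 78 genes of the mitochondrial ribosome. The following starts are shown because they span the longest tracts and the genes on which the CTCF results turn. Each line gives 15 bases before and 15 bases from the start, hg38, read along the transcript, and capitals mark the pyrimidine run that begins at the start.
RPL7A, chr9:133348203-133348232, plus strand: ccacaattccctttcCTTTCTCTCTCCTCC
RPS24, chr10:78033848-78033877, plus strand: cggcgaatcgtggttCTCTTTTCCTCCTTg
RPLP2, chr11:809952-809981, plus strand: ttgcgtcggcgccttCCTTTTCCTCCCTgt
RPL26, chr17:8383179-8383208, minus strand: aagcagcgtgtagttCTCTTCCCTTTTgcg
RPL5, chr1:92832025-92832054, plus strand: cgcaagggctgtggcCCTTTTCCCaccccc
RPLP0, chr12:120201097-120201126, minus strand: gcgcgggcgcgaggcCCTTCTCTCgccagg
RPS29, chr14:49586366-49586395, minus strand: tgcgtgggccagcttCTTCCTTTTacctcg
RPL38, chr17:74203663-74203692, plus strand: aacggaagtctcgttCTTTTTCgtcctttt
RPS15, chr19:1438381-1438410, plus strand: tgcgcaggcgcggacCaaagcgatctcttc
RPL7A, a large subunit protein, had the longest run. At RPS15 the run ended after the first base. The RefSeq promoter table gave the start at the same base for 52 of the 58 members it holds.

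Within the 300 bases from 250 before to 50 after the start, the letters AAGATGG, the core of the motif of the factor YY1, were found on either strand at 14 members (19.2%) and at 6.34% of all genes. The letters CCGGAAG, the core of ETS family motifs such as that of GABPA, were found at 25 members (34.2%) and at 14.2% of all genes, and the shares in the mitochondrial set were 32.1% and 41%. TATAAA was found at 8.22% of members and 9.74% of all genes. CGGCGG, a pair of the CGG triplets that CGGBP1 is named for, was found at 23 members (31.5%, interval 21.1 to 43.4%), at 42.3% of all genes and at 55.3% of the 13463 genes with H3K4me3 at their promoter in CT. The median G+C content of the members' windows was 59.3%, against 63.7% for all genes, while CpG was closer to its expected frequency (0.92 against 0.78 observed over expected). Small nucleolar RNA genes lay inside 26 members (35.6% against 1.22% of all genes), 58 such genes in all. These matches describe letters and not bound factors.

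CTCF peaks were found at ribosomal protein promoters in all 3 lists. Of 73 members, 15 had a CTCF peak within 1 kb of the start in CT (20.5%, interval 12 to 31.6%), against 7.14% of all genes. In KD 19 members (26%, 16.5 to 37.6%) and in OE 16 members (21.9%, 13.1 to 33.1%) had one, against 11.2% and 9.8% of all genes. The shares of all genes lay below the members' intervals in each list with the canonical start. With any annotated transcript start of a gene in its place, the members' shares were 23.3% (14.2 to 34.6%), 30.1% (19.9 to 42%) and 27.4% (17.6 to 39.1%) in CT, KD and OE, and those of all genes, 14.8%, 20.9% and 19.1%, lay inside the intervals. Among the 13463 genes with H3K4me3 at the promoter 9.38%, 14.7% and 12.7% had a CTCF peak in CT, KD and OE, also below those intervals. The mitochondrial ribosomal protein genes had 15.4%, 19.2% and 20.5%, inside the members' intervals. The 1388 processed pseudogenes of the members, which copy the mRNA but not the promoter, had 2.95%, 2.23% and 2.52%. The large subunit had 11 of 43, 10 and 10 members with a promoter peak in CT, KD and OE, and the small subunit 4 of 30, 9 and 6. Other TOP genes and translation factors had 1, 2 and 2 of 17, and ribosome biogenesis genes 3, 6 and 5 of 20. No member had an input peak within 10 kb, where 0.361% of all genes had one, and a count of 0 of 73 allows a share of up to 4.11% by the limit of 3 counts, or 4.93% by the exact interval. With each list cut to its 20000 widest peaks the members fell to 7, 11 and 10 in CT, KD and OE. These were 9.59%, 15.1% and 13.7% of members, against 3.46%, 4.86% and 4.85% of all genes.

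**Figure D1:**
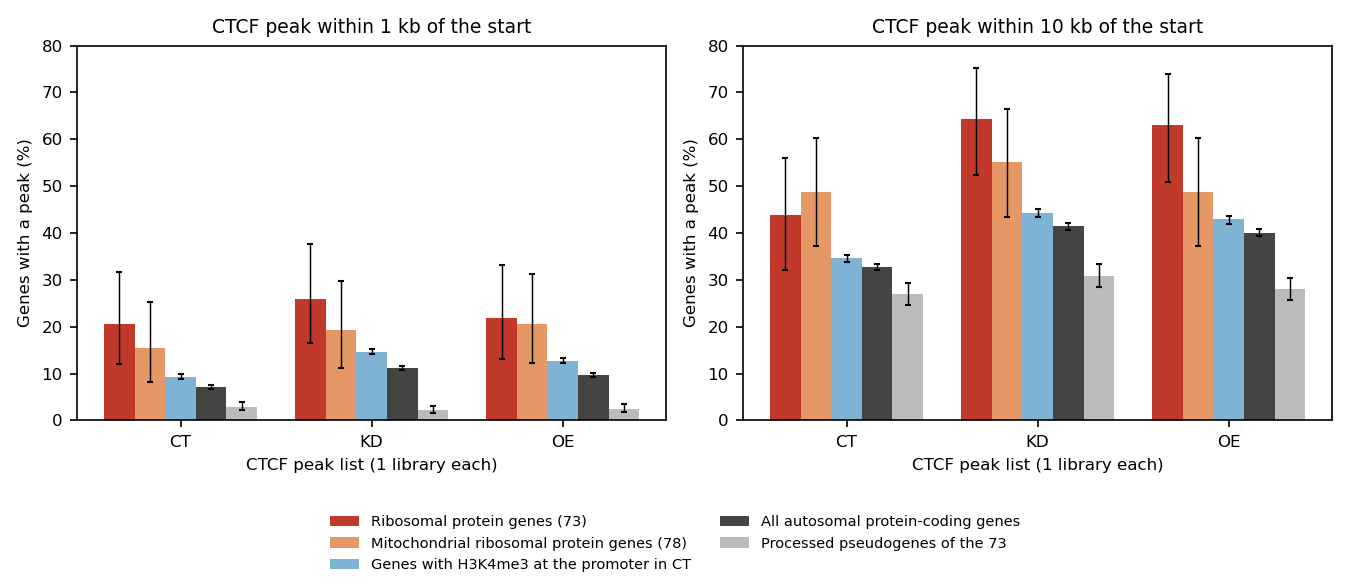
Percentage of genes with a CTCF peak within 1 kb (left) or 10 kb (right) of the transcription start in the CT, KD and OE lists, for 5 gene groups. Bars start at 0 and error bars are exact 95% intervals over genes. At the promoter the ribosomal protein genes reached 20.5%, 26% and 21.9%, and all autosomal protein-coding genes 7.14%, 11.2% and 9.8%.

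In all, 21 members (28.8%, against 15.6% of all genes) had a promoter peak in at least 1 list. Of these, 12 were shared by the 3 lists and 9 were not. The sequences under these peaks were scanned on both strands with a matrix of 14 columns learned from CTCF peaks of the same study, with a site called at p below 0.0001 per position, a score of at least 8.31. The score is the sum over columns of the log2 ratio of each base's frequency to its genome frequency. A site was found under 14 of 16 CT, 16 of 20 KD and 15 of 17 OE promoter peaks (87.5%, 80% and 88.2%), against 77.7%, 79.4% and 76.4% of promoter peaks of all genes. A site that lay under the CT, KD and OE peaks is shown for 10 of the 12 members with all 3, since these peaks were called in every condition. Lines give hg38 positions and the strand that is printed, and capitals mark the 14 bases of the site.
RPL5, chr1:92831923-92831952, plus strand: ccctccttCCAGCAGGGGGCGGaacgtaaa
RPL10A, chr6:35468261-35468290, minus strand: ttctctggCCGCTGGGGGGCGTcgctgggc
RPL26, chr17:8383308-8383337, minus strand: cctcctagCCACTAGGTGACACtagccata
RPL27, chr17:42998038-42998067, minus strand: tattggtgCCTGTCGGGGGCACtgttagct
RPL32, chr3:12841865-12841894, minus strand: tcttctgaCCACTAAGAGGCGCacttcgga
RPL36, chr19:5690199-5690228, plus strand: gactccagCCGCCAGGGGGAGCgcgtgccg
RPL38, chr17:74203544-74203573, plus strand: gacttcgaCCACAAGGGGGCAGggctgctg
RPLP0, chr12:120201329-120201358, minus strand: gctccagcCCAGCAGGTGGCAGcagctcag
RPS15, chr19:1438280-1438309, plus strand: ccctccagACGGCAGAGGGCGCgtgttcgc
RPS29, chr14:49587005-49587034, minus strand: aatttattCCAGTAGGTGTCACtggtgagt
The 5 members below had a site under a peak that was missing from 1 or 2 lists, and are shown for comparison.
RPL11, chr1:23691667-23691696, plus strand: agcactacCCACAAGGGAGAAGccgacgct
RPS3A, chr4:151099507-151099536, minus strand: attccgggACAGTAGAGAGCGCcactcttt
RPS26, chr12:56041651-56041680, minus strand: gcgctgcgCCACCGGGGGACGCcctgggct
RPS19, chr19:41859561-41859590, plus strand: agactccgACACTAGAAGGCAGagctgaac
RPL29, chr3:51996032-51996061, minus strand: ggaggcagCCTGAAGGGGGCGGaggcaagc
Among the 10 sites shown of shared members the scores ran from 10.22 (RPL32) to 22.15 (RPL5), and RPL5, RPLP0 and RPL38 all exceeded 20. Among the 5 others shown they ran from 10.26 (RPL11) to 17.31 (RPL29), so the ranges overlapped. The peaks at RPSA, RPS14 and RPS20 held no site.

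The proteins of these 12 genes come from both subunits. RPL5 protein carries the 5S ribosomal RNA into the large subunit and, when free, binds the p53 regulator MDM2. Its CTCF peak was centred at -67 bp from the start in CT and at -96 bp in both KD and OE. RPLP0 is the base of the stalk that recruits elongation factors, and its peak centres lay at -257, -229 and -202 bp in CT, KD and OE. RPL38 is known for its part in translation of Hox mRNAs, and its peak centres lay at -107, -86 and -77 bp. The 3 peaks at each of these genes overlapped one another, and each covered the site shown above.

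RPS15 and RPS29 belong to the small subunit. RPS15 had centres at -105, -140 and -127 bp in CT, KD and OE. RPS29, a small zinc-binding protein, had the farthest shared site, at -639 bp, with peak centres at -714, -613 and -632 bp. RPL36 had a second peak in each list at -812, -897 and -877 bp, which held no site, beside its peaks at -140, -92 and -108 bp. RPL26, which can bind the p53 mRNA, had centres that moved from -231 bp in CT to -164 bp in KD and -79 bp in OE, where the CT peak of 563 bp held a second site. Of the shared members, RPL10A, RPL27 and RPL32 had centres from -401 to -117 bp.

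**Figure D2:**
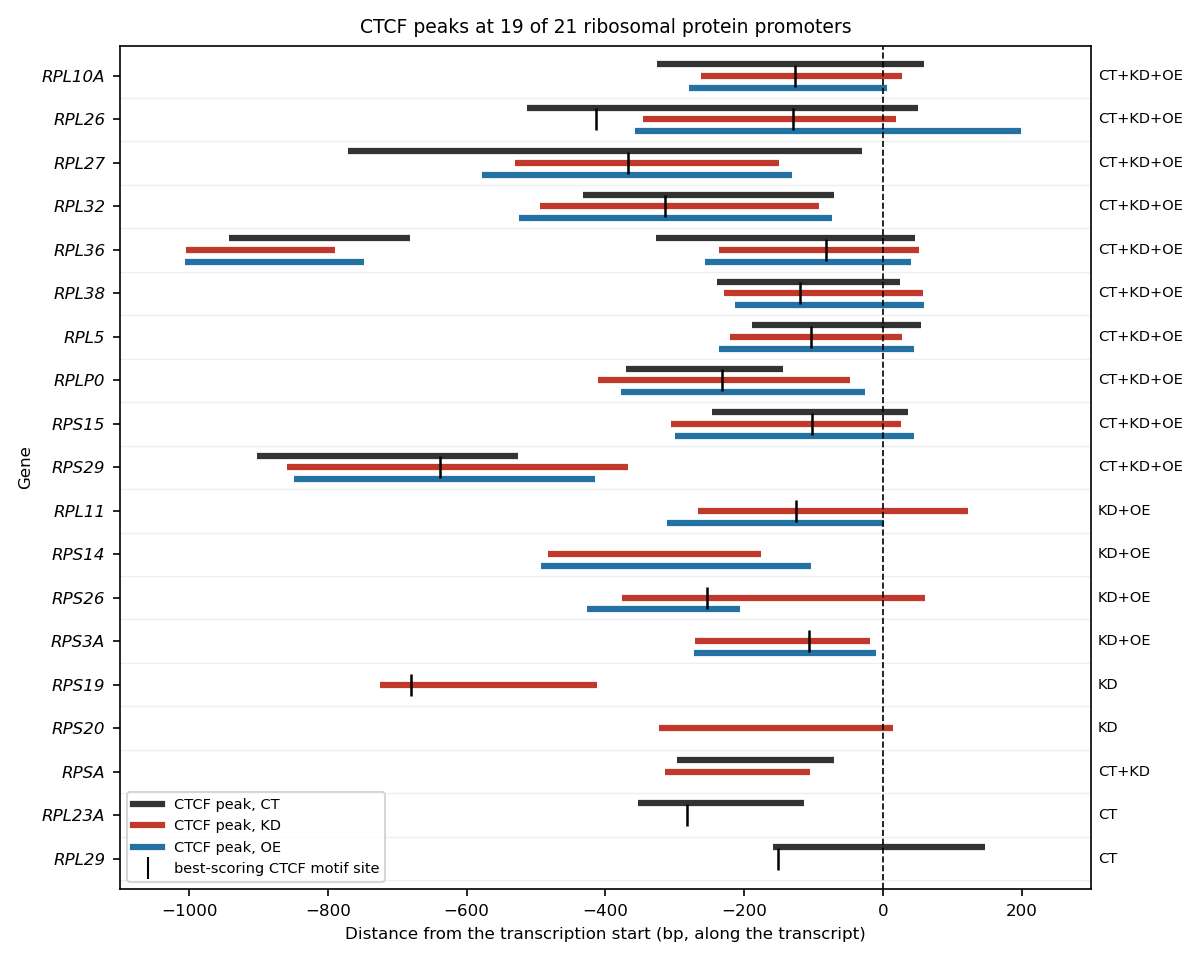
CTCF peaks (horizontal bars, 1 per list) at 19 of the 21 ribosomal protein genes with a promoter peak in any list, against the distance from the transcription start in bp along the transcript. Vertical ticks are the best-scoring CTCF sites and the labels at the right name the lists with a peak. Every peak centre shown lies to the left of the dashed line at the start.

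The centre of every promoter peak at a member lay upstream of the start, in 16 of 16 cases for CT, 20 of 20 for KD and 17 of 17 for OE. The lower bounds of the intervals were 79.4%, 83.2% and 80.5%. Among genes with H3K4me3 at the promoter, 76.6%, 75% and 74% of the peak centres lay upstream. At the mitochondrial ribosomal protein genes 11 of 12 (91.7%) did in CT, 12 of 15 (80%) in KD and 12 of 16 (75%) in OE. The CT share of that set lay inside the members' interval, and those of KD and OE lay below it. In CT, 13 of the 16 members' peaks (81.2%) were centred in the 300 bp before the start, against 39.7% for the genes with H3K4me3. The share was 70% in KD and 76.5% in OE, against 36.7% and 34.5%. A start on the opposite strand within 1 kb was present at 28 members (38.4%), against 23.5% of all genes and 42.3% of the mitochondrial set. Leaving those members out kept 13 of 13, 15 of 15 and 13 of 13 centres upstream, with lower bounds of 75.3%, 78.2% and 75.3%. The mitochondrial set then had 7 of 8, 7 of 8 and 8 of 9 upstream (87.5%, 87.5% and 88.9%), inside those intervals. The genes with H3K4me3 then had 79.1%, 77.6% and 76.3%, inside the members' interval in CT and OE and below it in KD. The best site read along the same strand as the gene in 11 of the 14 CT peaks with a site. It did in 12 of 16 in KD and 11 of 15 in OE. For the genes with H3K4me3, 593 of 1018 sites did so in CT. In KD 965 of their sites did and 646 did not, and in OE 794 and 539. In the mitochondrial set 5 did and 5 did not in CT, 6 and 5 in KD, and 5 and 4 in OE. No interval was computed for these counts, and those of the members are small. The start base itself lay under 8 CT, 10 KD and 8 OE peaks.

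The promoter peaks of 9 members were missing from at least 1 list. RPL11, the partner of RPL5 in the 5S particle, had no promoter peak in CT and peaks centred at -72 bp in KD and -155 bp in OE. RPS14, the gene whose loss marks the 5q- syndrome, had none in CT and peaks at -329 and -298 bp in KD and OE. RPS26 (-158 and -316 bp) and RPS3A (-145 and -141 bp) followed the same pattern. These 4 are 5.48% of members, and 2.83% of all genes had a promoter peak in KD and OE and none in CT.

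RPS19, the gene most often mutated in Diamond-Blackfan anaemia, had a promoter peak in KD alone, at -569 bp, as did RPS20 at -154 bp. In the other direction, RPL23A (-233 bp) and RPL29 (-6 bp) had one in CT alone, and RPSA, which also binds laminin, had one in CT (-184 bp) and KD (-210 bp) and none in OE, a state of 0.727% of all genes. The state of CT and OE without KD (0.277% of all genes) held no member. No member had a promoter peak in OE alone, a state of 2.37% of all genes. For the 12 members with all 3 peaks (16.4%) the share of all genes was 4.33%. The 2 members with a KD peak alone and the 2 with a CT peak alone (2.74% each) stood beside 3.31% and 1.81% of all genes, so these 2 states were near the background.

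In the lists called after mapping to a repeat-masked genome, 18 of the 19 KD members and 15 of the 16 OE members were found again, without RPS26 in both. In CT 12 of 15 were found again, and RPL23A and RPSA were among those not found. These lists had a promoter peak at 6.87% of all genes in CT, 8.03% in KD and 6.52% in OE. RPS3A, which had no unmasked CT peak, had a repeat-masked one centred at -197 bp, so its difference between CT and the other lists did not hold in that processing.

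The wider window of 10 kb either side was counted in the same way. A CTCF peak was found there at 32 members in CT (43.8%, 32.2 to 55.9%), 47 in KD (64.4%, 52.3 to 75.3%) and 46 in OE (63%, 50.9 to 74%), against 32.8%, 41.4% and 40.1% of all genes. The share of all genes lay at the lower end of the members' interval in CT and below it in KD and OE. The mitochondrial ribosomal protein genes had 48.7%, 55.1% and 48.7%, inside the members' interval in CT and KD and below it in OE. With any annotated transcript start the share of all genes stayed inside the interval in CT and below it in KD and OE. The members' own intervals for the 3 lists overlapped one another, as they did at the promoter. The lists cover the same genes, so this overlap does not compare them gene by gene. Within 10 kb, 19 members had a peak in KD and not in CT, and 4 the reverse (16.9% and 8.29% of all genes). For OE against CT the counts were 19 and 5 (16.4% and 9.08% of all genes). At the promoter they were 6 and 2 for KD against CT (8.22% and 2.74% of members, 6.14% and 2.09% of all genes). For OE against CT they were 4 and 3 there (5.48% and 4.11% of members, 5.19% and 2.54% of all genes). No replicate library was available to check these differences. The lists held 42978, 47632 and 47216 peaks in total. The median distance from the start to the nearest CTCF peak was 10.5 kb in CT, 6.71 kb in KD and 6.82 kb in OE for the members, and 18.8, 13.8 and 14.7 kb for all genes.

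Among the 73 members, 26 had a peak within 10 kb in all 3 lists, 17 in KD and OE but not in CT, and 20 in none (27.4%, against 43.8% of all genes). The 26 (35.6%) stood beside 22% of all genes, and a peak in at least 1 list was found near 56.2% of all genes. Fewer members had a peak in CT and KD (2, RPS18 and RPSA), in CT and OE (1, RPL15), in CT alone (3, RPL37A and RPS10 among them), in KD alone (2, RPS6 and RPS19) or in OE alone (2, RPL12 and RPS15A), where the shares of all genes were 2.45%, 1.66%, 6.63%, 7.07% and 6.54%. The 17 members (23.3%) stood beside 9.83% of all genes, 10.6% of the genes with H3K4me3 at the promoter and 8.97% of the mitochondrial ribosomal protein genes. Among the 17 were RPL4, RPL6, RPL11, RPL13, RPL13A, RPL19, RPL22, RPL27A, RPL35A, RPLP1, RPS3A, RPS12, RPS14, RPS16, RPS20 and RPS26, and 10 of the 17 belong to the large subunit. At RPL13A, a protein that can leave the ribosome as part of an interferon-induced translational silencer, the peak was centred at -8604 bp in KD and -8625 bp in OE.

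At each of the 17 members a KD peak overlapped an OE peak. The 17 were picked for having a peak of both lists in the window. Such overlap was not counted for the other genes with this pattern. At RPL22, which has a close paralogue in RPL22L1, the KD and OE peaks were centred at -5629 and -5613 bp. At RPL35A, another Diamond-Blackfan gene, they lay at -6980 and -7009 bp, and at RPS16 at -4483 and -4459 bp inside the neighbouring gene SUPT5H, which encodes an elongation factor. At RPS12 they lay at 8565 and 8560 bp. Of the 17 members, 5 had a peak within 10 kb in the repeat-masked CT list. For the other 12 the CT list lacked a peak in both versions. Of all genes, 26% had a peak within 10 kb in the repeat-masked CT list. That share includes genes with an unmasked CT peak, and it was not computed for genes with the pattern of the 17.

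The motif content of these peaks followed the lists that share them. Of the CT peaks within 10 kb of a member that also overlapped KD and OE peaks, 29 of 31 held a site (93.5%, 78.6 to 99.2%). Of the KD peaks that overlapped an OE peak and no CT peak, 19 of 23 did (82.6%, 61.2 to 95%). Of the CT peaks that overlapped neither KD nor OE, 5 of 11 did (45.5%, 16.7 to 76.6%). A site at p below 0.00001 was held by 1 of these 11 (9.09%), that at RPL29, and by 8.81% of such peaks of all genes. For all genes the 3 shares were 93.1%, 88.8% and 26%, and the members' intervals held all 3 of these values. The matrix itself was learned from peaks shared by the 3 lists. Over all peaks within 10 kb of members, a site was found in 35 of 44 in CT (79.5%), 55 of 65 in KD (84.6%) and 53 of 62 in OE (85.5%), against 68.7%, 80.5% and 73.7% near all genes.

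H3K4me3 was found at the promoter of every member in both conditions. All 73 members had an H3K4me3 peak within 1 kb of the start in CT and in KD (95.1 to 100%), against 70.4% and 71.1% of all genes. The processed pseudogenes had 3.39% and 3.75%. The mark was also found at all 78 mitochondrial ribosomal protein genes, at FAU and RACK1, whose products are ribosomal proteins outside the symbol rule, at 17 of 17 other TOP genes and translation factors such as EEF1A1 and EEF2, and at 20 of 20 ribosome biogenesis genes such as NCL and FBL. Of 8 paralogues left out by the rule, RPL3L, a muscle form, and RPL10L, a testis form, had no H3K4me3 peak in either condition, and the other 6 had one. ACTB, GAPDH, EEF1A1 and TUBB, chosen as promoters active in any cell, carried the mark in CT and KD, and ALB, CD3E, PTPRC, MYH7 and INS, markers of liver, blood, heart and pancreas, did not.

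The median member had 1676 of the 2001 bases within 1 kb of its start under an H3K4me3 peak in CT and 1702 in KD, against 1373 and 1402 for the genes with H3K4me3 at the promoter and 1656.5 and 1627.5 for the mitochondrial ribosomal protein genes. The quartiles of the members were 1442 and 1873 bases in CT. The start base itself was covered at 68 members in CT (93.2%) and 72 in KD (98.6%), against 58.4% and 61.3% of the genes with H3K4me3 and 89.7% and 92.3% of the mitochondrial set. RPL35, RPLP2, RPS2, RPS19 and RPS21 lacked cover of the start in CT, and in KD RPS21 alone did. At least 2 peaks shared the promoter window at 28.8% of members, 49.5% of the genes with H3K4me3 and 20.5% of the mitochondrial set in CT.

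**Figure D3:**
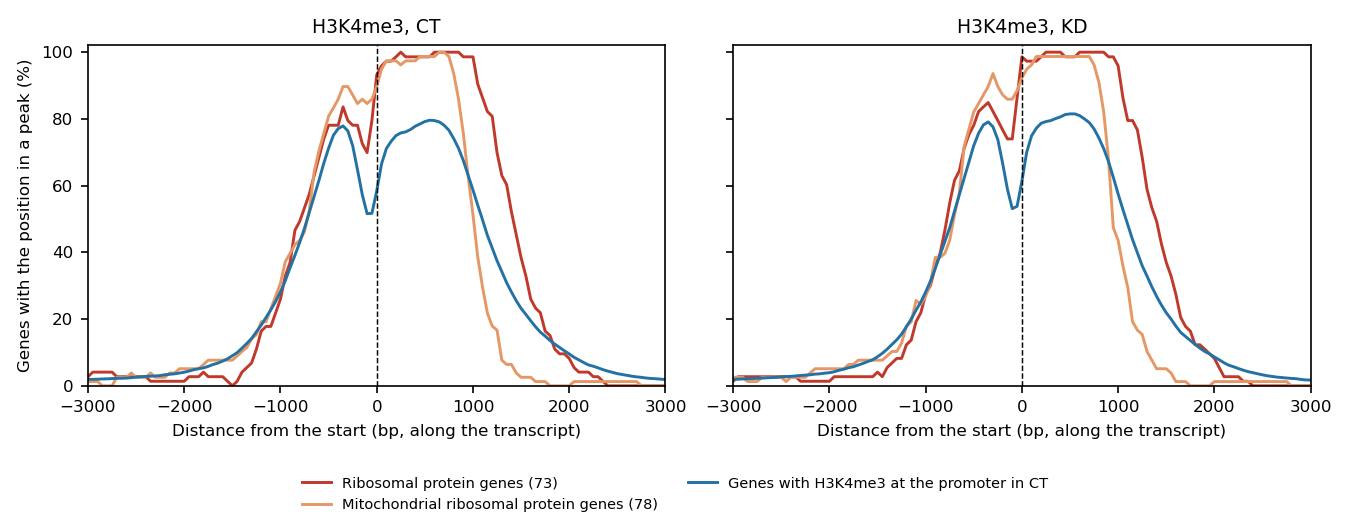
Percentage of genes whose position at a given distance from the transcription start (bp along the transcript) lies inside an H3K4me3 peak, in CT (left) and KD (right), for 3 gene groups. At 1000 bp after the start 98.6% of ribosomal protein genes in CT and 95.9% in KD were covered, and 58.7% and 57.5% of genes with H3K4me3 at the promoter in CT.

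The median member had more bases covered on both sides of the start than the genes with H3K4me3, 703 against 588 in the 1 kb before it in CT and 738 against 598 in KD, and 1000 against 824 and 844 after it. The mitochondrial ribosomal protein genes had 699.5 and 703 before it and 975 and 940 after it. The peak over the start reached a median of 1401.5 bp into the gene in CT and 1391.5 bp in KD, against 943 and 939 bp for the genes with H3K4me3 and 986.5 and 941.5 bp for the mitochondrial ribosomal protein genes. Upstream it reached 551.5 and 618.5 bp, against 557 and 551 bp for the genes with H3K4me3 and 697 and 679 bp for the mitochondrial set. At 1500 bp after the start 28 of 73 members (38.4%) were still covered in CT and 27 (37%) in KD, against 23.2% and 21.9%. Just before the start the share of covered members fell, to 69.9% at -100 bp in CT and 74% in KD, to 51.6% and 53.1% for the genes with H3K4me3 and to 84.6% and 85.9% for the mitochondrial set. The peak over the start of RPLP1, a protein of the ribosomal stalk, was 2981 bp wide in CT and 2789 bp in KD, and that of RPL10A was 2779 and 2848 bp wide.

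The members with the fewest bases lacked them before the start. The fewest H3K4me3 bases in CT were found at RPS15 (1026), RPL13A (1038), RPL5 (1049), RPL17 (1060) and RPS3 (1072), and in each the 1000 bases after the start were covered in full while 25 to 71 bases before it were. The window was covered in full, at 2001 bases, at 12 members in CT, the first 5 by symbol being RPL24, RPL30, RPL37, RPL4 and RPL41. Of these, RPL37 had 1841 bases in KD and the other 4 were again covered in full.

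H3K4me3 before the start was set beside CTCF. Members with a CTCF promoter peak in CT had a median of 449 H3K4me3 bases in the 1 kb before the start (n = 15, quartiles 309 and 686.5), and the others 743.5 (n = 58, quartiles 549.5 and 947). In KD the medians were 532 (n = 19, quartiles 399 and 681.5) and 777.5 (n = 54, quartiles 595.5 and 963.75). The quartile ranges of the 2 groups overlapped, and the downstream medians were 1000 in both. For the genes with H3K4me3 at the promoter the medians with and without a CTCF peak were 586 and 589 in CT and 600 and 598 in KD. A start on the opposite strand, which can carry H3K4me3 of its own, was within 1 kb of 5 of the 21 members with a CTCF promoter peak in any list (23.8%) and 23 of the 52 without (44.2%), and its part in this difference was not tested. A C-first pyrimidine run of at least 5 bases was found at 13 of those 21 (61.9%) and 42 of the 52 (80.8%).

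At RPL5 the H3K4me3 peak began 48 bp before the start in CT and 52 bp in KD, and the CTCF site at -103 bp lay outside it in both. At RPS15 the peak began 25 and 47 bp before the start, with the site at -102 bp. At RPL38 it began 59 and 56 bp before the start, with the site at -120 bp. The site lay inside an H3K4me3 peak of the same condition in 7 of 14 CTCF promoter peaks with a site in CT and 10 of 16 in KD (50% and 62.5%), against 66.4% and 72% for the genes with H3K4me3. No interval was computed for these shares, and the members' counts are too small to tell them from those of the other genes. At RPL10A, RPL36 and RPLP0 the peak ran over the site in both conditions, reaching 993 bp upstream at RPLP0 in CT, where the antisense gene PXN-AS1 starts 163 bp away.

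H3K4me3 in the promoter window was compared between CT and KD. The KD peaks covered more promoter bases than the CT peaks at 38 members (52.1%, against 41.7% of all genes), fewer at 24 (32.9%, against 27.7%) and as many at 11. Among the genes with H3K4me3 at the promoter, 57.8% had more bases and 39.4% fewer. The median difference, KD minus CT, was 2 bases, with a range of -373 to 302. No member moved by more than 500 bases in this window, as 0.565% of all genes did. Within 5 kb of the start 33 members had more bases in KD and 40 fewer, and 2 moved by more than 500 bases (2.74%, against 1.86% of all genes), RPL36 by 674 and RPS18 by -523. The 5 largest rises were at RPL26 (1699 bases in CT and 2001 in KD), RPL32 (1234 and 1533), RPL22 (1604 and 1813), RPL35 (1613 and 1789) and RPS2 (1643 and 1817). The 5 largest falls were at RPS29 (1754 and 1381), RPL37 (2001 and 1841), RPS18 (1961 and 1801), RPL7 (1740 and 1607) and RPL12 (1875 and 1757). RPL26, RPL32 and RPS29 had a CTCF promoter peak in CT, KD and OE, and the other 7 had none in any list.

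**Figure D4:**
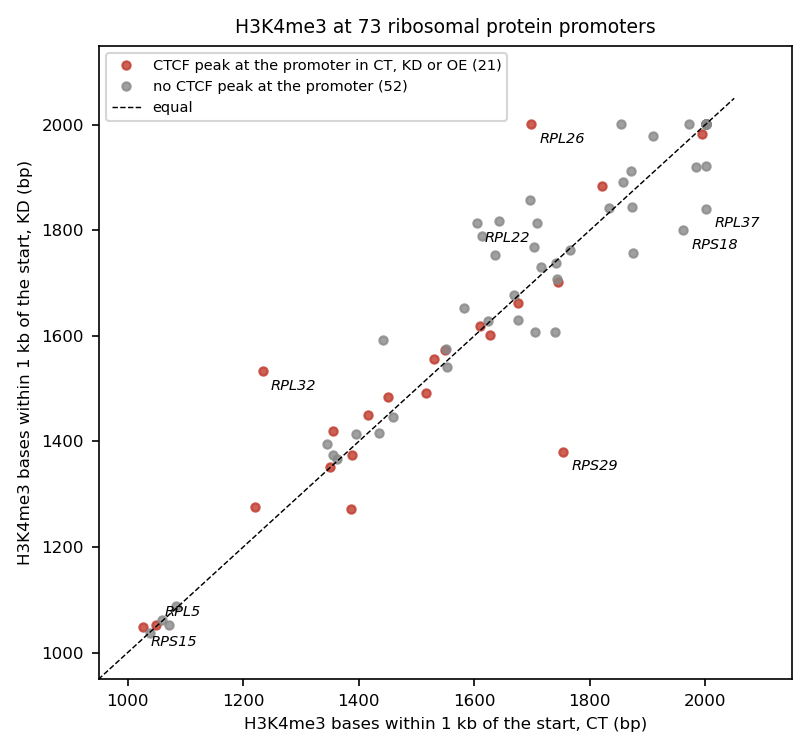
H3K4me3 bases within 1 kb of the start in CT (horizontal axis) and KD (vertical axis), in bp, 1 point per ribosomal protein gene, red for the 21 genes with a CTCF promoter peak in any list and grey for the other 52. Most points lie near the dashed line of equality, with RPL26 and RPL32 above it and RPS29 below it.

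At RPL32 the KD peak reached 532 bp upstream, past the CTCF site at -314 bp, and the CT peak reached 233 bp and stopped before it. At RPL26 the upstream reach was 378 bp in CT and 1083 bp in KD. At RPS29 the bases covered in the 1 kb before the start were 753 in CT and 380 in KD, while the peak over the start itself reached 123 and 81 bp upstream. The mitochondrial ribosomal protein genes had fewer bases in KD at 46 of 78 (59%) and more at 28, with a median difference of -17 bases. Over the genes with H3K4me3 at the promoter the median difference was 12 bases, with quartiles of -27 and 68 bases.

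The lists of the repressive marks were short. The antibodies for H3K9me3 and H3K27me3 are swapped between the labels and the methods, so both lists are called by their titles here. H3K9me3 peaks lay within 10 kb of 9 members in CT (12.3%, 5.8 to 22.1%) and 4 in KD (5.48%, 1.51 to 13.4%), against 7.06% and 2.77% of all genes, values inside both intervals. The 9 members in CT were RPL4, RPL5, RPL8, RPL23A, RPL24, RPLP1, RPS12, RPS15 and RPS15A, and the 4 in KD were RPL36, RPS3, RPS14 and RPS27A. No member was in both lists, where 0.853% of all genes were.

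At the promoter, H3K9me3 peaks were found at RPLP1 (-893 bp), RPS12 (-188 bp) and RPS15A (-137 bp) in CT and at RPS3 (-360 bp) and RPS14 (114 bp) in KD. The members with such a peak were 4.11% (interval 0.856 to 11.5%) in CT and 2.74% (0.334 to 9.55%) in KD. The shares of all genes, 1.02% and 0.581%, lay inside these intervals. The H3K9me3 peaks at RPLP1, RPS15A and RPS14 overlapped H3K4me3 peaks. The peaks were short. The narrowest width in the CT list was 161 bp, that of 36.1% of its peaks, and it was also the width at RPLP1, RPS12, RPL4, RPL5, RPL23A and RPS15. The KD peaks at RPL36 and RPS27A had the narrowest width of their list, 157 bp. The lists held 14546 H3K9me3 peaks in CT and 8356 in KD, so fewer members in KD went with a shorter list.

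H3K27me3 was found at 1 member in CT, RPS29, in a peak of 279 bp centred at -372 bp that overlapped H3K4me3, and at none in KD (0 of 73, with the same limits as for the input). Within 10 kb, 1.49% of all genes had an H3K27me3 peak in CT and 0.67% in KD. At the promoter the share was 0.34% of all genes in CT. The lists held 6003 and 4804 peaks. At RPS29 the H3K27me3 peak was in the CT list alone, the H3K4me3 bases were 1754 in CT and 1381 in KD, and the CTCF promoter peak was in all 3 lists. With the RefSeq start of RPS29, which lies 12330 bp from the one used, the H3K27me3 count in CT was 0, so the values given for its promoter rest on the GENCODE start.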

How the data were processed

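ChIP DNA from HEK293T cells was sequenced on an Ion Torrent S5 instrument, 1 library per condition, and 10 samples gave 10 peak lists and 3 repeat-masked CTCF lists. According to the methods and the submitters' processing notes, the authors trimmed and filtered the reads, mapped them with Bowtie2 to hg38, called peaks per library with MACS2 and used bedtools, with versions not given in the sources used here. The deposited lists hold start and end positions on hg38 without heights. The number of reads behind a peak is therefore unknown, and only counting intervals over genes or peaks were computed. The paper reports total and mapped reads per library, which differ between the conditions. They were not used here, and their part in differences between the lists was not tested. For CTCF the labels give p thresholds of 0.0025 (CT and KD) and 0.005 (OE), whereas the methods give 0.005 without masking. The repeat-masked lists used 0.001. The 6 lists of peaks exclusive to a condition were not used.

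Samples were grouped by the labels. Gene starts were canonical starts of GENCODE 44. A gene had a peak if at least 1 bp lay within 1 kb (promoter) or 10 kb of the start. Starts in the lists were read as 0-based. Members were compared with 19111 autosomal protein-coding genes, with the 13463 of them that had H3K4me3 at the promoter in CT, and with the fixed lists. The matrix of 14 columns was learned from 12859 repeat-masked CT peaks shared with KD and OE, so that a higher share of sites in shared peaks is in part built in. The following members were named: those with a CTCF, H3K9me3 or H3K27me3 peak as described, the 5 with the most and the fewest H3K4me3 bases, and the 5 largest rises and falls. The 17 members with a 10 kb peak in KD and OE alone, and the examples among them, were named after their values were seen. Some genes and sequences are counted in the totals but not reported here by name. The members and lists were chosen with earlier results of these data known. Counting and scanning were tested on simulated data, where 100 of 100 planted promoter peaks and 961 of 1000 planted sites were recovered. Alternatives varied the window, the start, the peak set, the masking and the motif. Python 3.11.15, numpy 2.4.6, scipy 1.17.1, pysam 0.24.0, samtools 1.23.1 and matplotlib 3.10.9 were used.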

Additional observations from a re-analysis of the deposited data

Results flagged for a closer look

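The repeat-masked CT list, which was set beside the main counts and not used in them, held a CTCF peak at the promoter of 4 members that had none in the unmasked CT list. These were RPL24, RPS10, RPS27A and RPS3A, with peak centres at 173, 827, -181 and -197 bp from the start. The first 3 had no promoter peak in the unmasked KD and OE lists either. The repeat-masked KD and OE lists added no member. The share of all genes with a peak in the repeat-masked list alone was not computed, so the 4 members have no background beside them. The reason for the difference between the CT lists was not tested.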

How the results depend on the processing

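Of 118 values recomputed for 18 results, 98 stayed close to the reported value (within 1.5 times for counts) and 20 moved. Whether a comparison reversed its direction was not scored. Leaving out peaks that overlap an input peak could hardly change a count, since no member had an input peak within 10 kb. With each list cut to its 20000 widest peaks, the members with a CTCF promoter peak numbered 7 in CT, 11 in KD and 10 in OE, and those with a peak within 10 kb 18 in CT, 27 in KD and 32 in OE, against 17.1%, 21.9% and 21.4% of all genes. With a window of 20 kb in place of 10 kb the counts were 50 for CT, 61 for KD and 60 for OE. These were 68.5%, 83.6% and 82.2% of members, against 52.1%, 61% and 59% of all genes. With 5 kb they were 23, 29 and 30 (31.5%, 39.7% and 41.1% of members), against 20.4%, 27.6% and 26% of all genes. With any annotated transcript start the share of all genes moved from below the members' promoter intervals to inside them in CT, KD and OE. The median H3K4me3 bases became 1001 in CT and in KD with 0.5 kb on either side, and 2158 in CT and 2154 in KD with 2 kb. Members near H3K9me3 in KD numbered 2 with 5 kb and 7 with 20 kb. H3K27me3 in CT became 0 with the RefSeq start, an alternative chosen after seeing the data, and 1 member had H3K27me3 in KD and 1 an input peak with 20 kb. For H3K9me3, H3K27me3 and the input, the shares of all genes with 5 kb and 20 kb were not computed. When the matrix was replaced by a 12-position consensus that allowed 1 mismatch, 21 CT peaks, 33 KD peaks and 29 OE peaks held a site. No paired analysis was possible because each condition had 1 library and no test was run. The OE list was called at a looser threshold than CT and KD, and without peak heights that difference cannot be told apart from the condition. The intervals and limits cover counting error over genes only.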

Other observations

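Of 8 paralogues of ribosomal protein genes that the symbol rule left out, a CTCF promoter peak was found at 1 in the CT list, 3 in the KD list and 2 in the OE list, and FAU and RACK1 had none in any list. The processed pseudogenes of a member numbered from 1 to 128, with a median of 11.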
